A study of Mus musculus with 8 samples.

Results

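The genes of collagens and other extracellular matrix (ECM) proteins were examined for differential H3K27ac in Nrip1 KO myotubes. The set was a list of 49 genes chosen by name, and all 49 were found among the 21938 protein-coding genes of GENCODE release M21 (genome build mm10). A region was assigned to the protein-coding gene whose annotated transcript start lay nearest to its centre, and regions centred within 100 kb of a start of a member were collected as a second set. Of 11179 differential regions on chromosomes 1 to 19, X and Y, 72 were assigned to 33 of the 49 genes, 88 lay within 100 kb of a start, and 105 met either rule. Among the 72 assigned regions, 29 carried more and 43 carried less of the mark in KO myotubes; they are called increased and decreased.

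H3K27ac, the acetylated form of lysine 27 of histone H3 that active enhancers and promoters carry, was profiled with CUT&RUN, in which an antibody directs a nuclease to marked chromatin and the released DNA is sequenced. Per the labels, there were 2 libraries each of Nrip1KO and Ctrl myotubes with the H3K27ac antibody, and 2 of each genotype with control IgG. Nrip1 encodes RIP140, a nuclear receptor coregulator. The comparison asks where this mark differs in muscle cells that lack it. Satellite cells, the muscle stem cells, came from the gastrocnemius muscle, were passaged and preplated to remove other cells, and were differentiated for 4 days into myotubes, the fused muscle cells of culture. The knockout came from Nrip1 fl/fl mice (C57BL/6J) crossed with C57BL/6JN mice that carry a Cre recombinase. The labels name only the genotype, and the study describes the cells as from its striated muscle line (strNrip1-/-), in which the muscle creatine kinase promoter drives Cre. The study used mice of either sex aged 8 to 16 weeks in general, and the number, sex and age behind these cultures are not given in the sources used here. Both antibodies were applied to portions of a common pool of nuclei. The labels do not say whether replicates came from separate cultures.

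The data are 2 lists of regions that the authors called at a difference of 2-fold or more, 1 list per direction. They hold no value per library, so the depth, the size of each change, the replicate spread and the IgG background are unknown here, and no test between genotypes could be run. All results are therefore descriptions of these lists. A difference in the mark per nucleus and a difference in the share of cells of some type cannot be told apart in such bulk material. Directions were very uneven over the chromosomes: increased regions made up 97.7% of the regions on chromosome 7, 69.1% on chromosome 10, 7.53% on chromosome 4 and 7.80% on chromosome 16. These 4 chromosomes carried 13 of the 49 genes and 36 of the 72 assigned regions, and the part of this imbalance in the results at those genes was not tested.

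Collagens are secreted as triple helices of 3 chains and assemble outside the cell into fibrils, into beaded filaments, or into the network of the basement membrane, the sheet that wraps each muscle fibre. Laminins form the second network of that sheet and link it to receptors on the fibre. In muscle, fibroblasts make much of the interstitial matrix, while muscle cells also contribute, and the matrix is cleared by proteases that tissue inhibitors hold in check.

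Both directions were represented among the ECM genes. An increased region was assigned to 17 of the 49 genes (34.7%), compared with 10.6% of all protein-coding genes. A decreased region was assigned to 20 genes (40.8%), compared with 17.8% of all protein-coding genes. Increased regions alone were found at 13 genes, decreased regions alone at 16 and neither at 16. Over all 21938 protein-coding genes, these counts were 1663, 3226 and 16376. Both directions were found at 4 ECM genes (Adamts5, Col12a1, Lamc1 and Tnc), or 8.16%, compared with 3.07% of all protein-coding genes. Increased regions made up 40.3% of the assigned regions of the ECM genes and 35.0% of all differential regions. On chromosomes other than 4, 7, 10 and 16, the ECM genes had 16 increased and 20 decreased regions (44.4% increased), compared with 30.2% increased among all regions there. If the regions of the ECM genes had the direction shares of the other regions of their own chromosomes, 24.3 of 72 would be increased, compared with the 29 listed.

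The ECM genes were longer than most genes and had more genome nearest to them, which bears on any count by nearest start. Their median length was 60.1 kb compared with 17.4 kb, and the median stretch with a member as its nearest start was 137 kb compared with 45.0 kb for all protein-coding genes. Among protein-coding genes of 15 kb or longer, 35.7% had an assigned region of either direction, compared with 67.3% of the ECM genes and 25.4% of all protein-coding genes. Per Mb of genome nearest to them, the ECM genes had 2.57 increased and 3.81 decreased regions, compared with 1.44 and 2.66 over all genes. Outside the 4 chromosomes, the densities were 2.28 and 2.85 per Mb, compared with 1.07 and 2.48. For 36 of the 72 regions, the start of a gene that is not protein-coding, mostly pseudogenes and non-coding RNAs, lay nearer than that of the member. These 36 included every assigned region of Col1a1, Col5a1, Col6a3, Col11a1, Col12a1, Dcn, Fbln1, Fn1, Has2, Postn and Tnc.

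**Figure D1:**
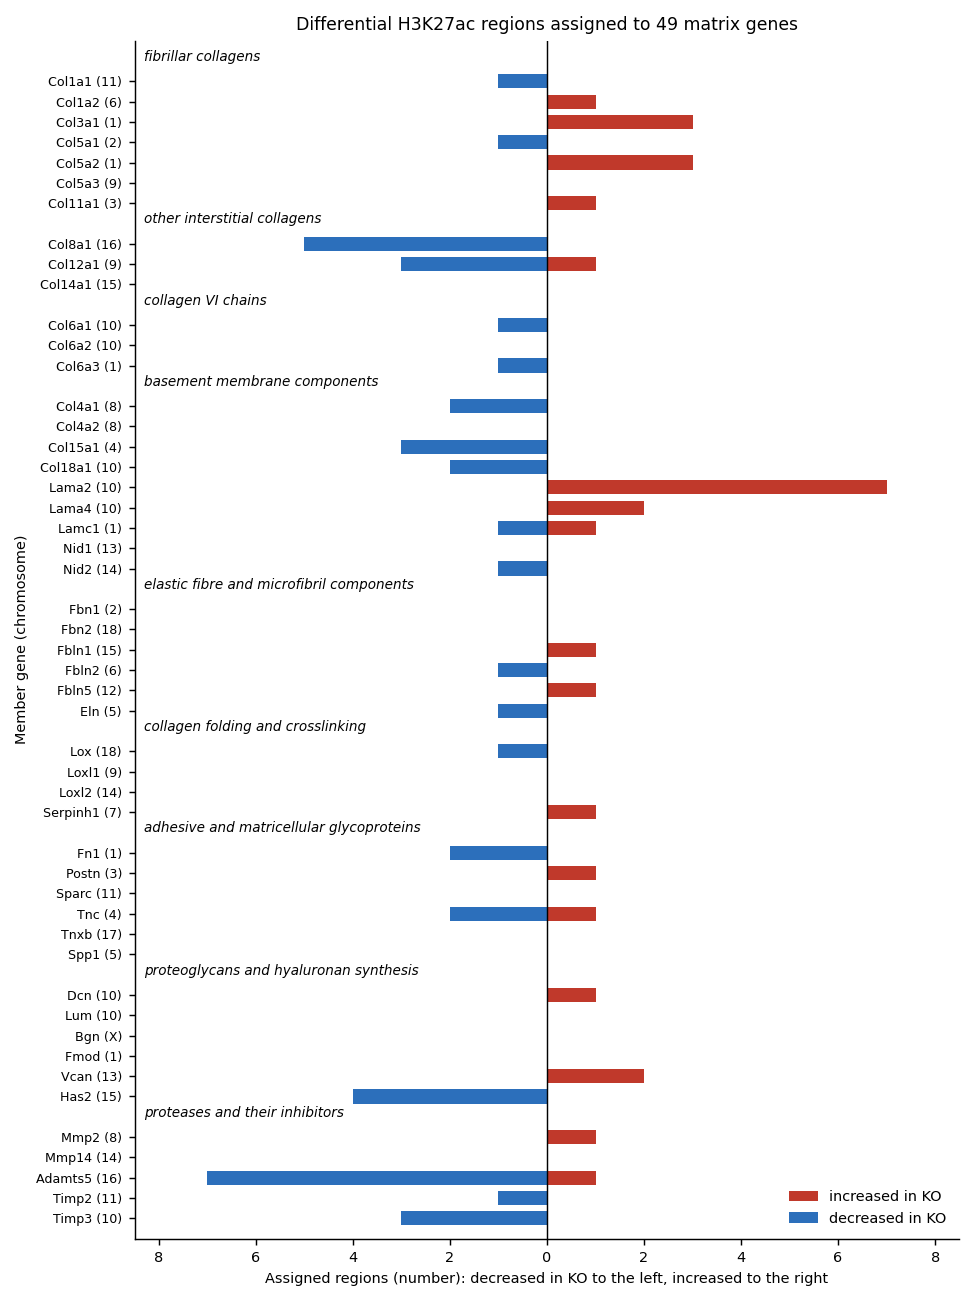
Number of increased (red, to the right) and decreased (blue, to the left) H3K27ac regions assigned to each of the 49 genes, which are grouped by role and followed by their chromosome. Lama2 has 7 increased regions, Adamts5 has 7 decreased regions, and 16 genes have none.

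Among the 7 fibrillar collagen genes, which encode the chains of the load-bearing fibrils, increased regions were found at 4 genes and decreased regions at 2. They had 8 increased and 2 decreased regions in all. None of these genes lies on chromosomes 4, 7, 10 or 16. Outside those chromosomes, 9.63% of all protein-coding genes had an increased and 18.3% a decreased region, and 30.2% of all regions were increased. Within 100 kb, 3 of the 7 genes had an increased (42.9%) and 2 a decreased region (28.6%). The shares within 100 kb were 21.2% and 44.7% of all protein-coding genes outside those chromosomes. Col3a1, the only chain of type III collagen, and Col5a2, a chain of type V collagen that sets fibril diameter, are neighbours on chromosome 1. Their most 5' starts are at 45311538 and 45503282, and their closest annotated starts lie 53676 bp apart. Each had 3 increased regions and no decreased one. The region nearest to Col5a2 spanned 2619 bp (chromosome 1, 45501082 to 45503700) and was centred 891 bp downstream of its start. The 2 others lay in introns, 7724 and 30456 bp from the start, with widths of 1186 and 1595 bp. At Col3a1, an increased region of 740 bp lay 11777 bp upstream of the gene, 1 of 808 bp lay beyond its 3' end, 44781 bp from its most 5' start, and 1 of 501 bp lay 295180 bp upstream. The first pair of these also lay within 100 kb of an internal start of Col5a2, at 93873 and 37315 bp. Neither lay within 100 kb of the most 5' start of Col5a2. No decreased region was within 100 kb of an annotated start of either gene.

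The chains of type I collagen, the main fibrillar collagen, differed in the direction of their regions. Col1a1 (chromosome 11) had a decreased region of 1319 bp in intergenic sequence 19497 bp upstream (94916068 to 94917386). Col1a2 (chromosome 6) had an increased region of 843 bp in intergenic sequence 7931 bp upstream (4496462 to 4497304). Chains of type V collagen were split in the same way, with increased regions at Col5a2 and a decreased intronic region of 3841 bp at Col5a1 (chromosome 2, 27916221 to 27920061), joined from 2 called peaks and 31716 bp from the start. Col11a1, a chain of the minor fibrillar collagen XI, had an increased region of 501 bp 119742 bp upstream. Col5a3 had none, and its nearest decreased region lay 157156 bp away.

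Sequences are given for the regions closest to starts, for the widest region of each direction and for a few single motif matches, in the direction of transcription of the gene and with motif letters in capitals. The 8 motifs were searched on both strands as AP-1 (TGANTCA), TEAD (CATTCC), the MyoD-type E-box (CAGCTG), RUNX (TGTGGT), SMAD (CAGACA), SP/KLF (GGGCGG), and MEF2 and SRF by their consensus, and matches may overlap. A match is a string of letters and not a measured binding site. From the region at the start of Col5a2, the 120 bases richest in motif letters held 1 SMAD match. The AP-1 letters stood in both intronic regions of Col5a2, in the region beyond Col3a1 and in the decreased region of Col1a1, which are shown with 15 bases on each side. The single matches were chosen after their values were seen.
Col5a2, chr1:45501280-45501399 (-): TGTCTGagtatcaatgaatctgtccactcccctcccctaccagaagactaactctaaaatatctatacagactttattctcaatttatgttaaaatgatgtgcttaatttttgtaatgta
Col5a2, chr1:45495481-45495517 (-): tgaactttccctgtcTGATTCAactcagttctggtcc
Col5a2, chr1:45472889-45472925 (-): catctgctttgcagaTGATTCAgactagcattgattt
Col3a1, chr1:45356088-45356124 (+): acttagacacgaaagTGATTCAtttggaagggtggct
Col1a1, chr11:94916671-94916707 (+): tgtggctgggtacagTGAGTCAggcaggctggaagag
In their central 500 bases, AP-1 letters were present in 27.6% of the increased and 20.9% of the decreased regions of ECM genes, compared with 24.3% and 17.9% of all regions.

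The other interstitial collagens had mostly decreased regions, 8 against 1 increased. Col8a1, a short-chain collagen of vessel walls and other matrices, had 5 decreased regions and no increased one, on chromosome 16. The widest decreased region of the whole gene set was at the Col8a1 start, at 4914 bp (57751189 to 57756102). The 4 others lay in introns between 4638 and 67999 bp from its most 5' start with widths of 501 to 1057 bp. Collagen XII and collagen XIV attach to the surface of fibrils. Col12a1 (chromosome 9) had 1 increased and 3 decreased regions, all in intergenic sequence downstream and between 151677 and 571603 bp from its most 5' start. The increased one lay farthest away. Col14a1 had none, and its nearest decreased region lay 109592 bp away.

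The wide Col8a1 region covered its RefSeq promoter entry (GRCm38.p6), as the decreased region at the start of Col6a1 covered that of Col6a1. Both promoters are shown up to the most 5' GENCODE start, 250 bases for Col8a1 and 126 for Col6a1. Of the 49 genes, 31 had an entry in that promoter table.
Col8a1, chr16:57754738-57754987 (-): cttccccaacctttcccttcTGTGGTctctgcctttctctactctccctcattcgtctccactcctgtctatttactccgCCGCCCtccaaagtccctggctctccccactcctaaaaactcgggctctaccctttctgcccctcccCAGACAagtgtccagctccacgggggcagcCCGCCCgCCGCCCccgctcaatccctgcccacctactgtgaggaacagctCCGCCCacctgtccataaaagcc
Col6a1, chr10:76726169-76726294 (-): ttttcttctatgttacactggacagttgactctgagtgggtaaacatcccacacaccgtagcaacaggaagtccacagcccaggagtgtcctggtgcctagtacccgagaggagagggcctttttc
The Col8a1 stretch held 4 matches of the SP/KLF letters, a RUNX match and a SMAD match, and the Col6a1 stretch of 126 bases held none of the 8 motifs. Over its whole width, the decreased Col6a1 region held 1 match each of AP-1, TEAD, RUNX, SMAD, SP/KLF and SRF. The SP/KLF letters were in 35.7% of 32851 promoter entries of 300 bases and in 67.7% of the 31 ECM entries. RUNX letters were in 16.8% of all entries and 12.9% of the ECM entries, and SMAD letters in 21.0% and 29.0%.

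Collagen VI forms beaded filaments next to the basement membrane of muscle fibres, and its chains had decreased regions only. The region at the Col6a1 start spanned 2046 bp (chromosome 10, 76725063 to 76727108) with its centre 82 bp downstream of the start, the closest of all 72. On a chromosome where 69.1% of regions were increased, it was 1 of 6 decreased regions of ECM genes, compared with 10 increased. Col6a3 (chromosome 1) had a decreased region of 2343 bp in intergenic sequence 119829 bp from its most 5' start, and 4 more decreased regions within 100 kb had Mlph or Cops8 as nearest gene. No region was assigned to Col6a2. Its most 5' start is at 76623630 and that of Col6a1 at 76726168. The closest annotated starts of these genes lie 95606 bp apart. The decreased region nearest to Col6a2 was the one at the Col6a1 start, 102456 bp away.

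The 9 genes of basement membrane components had 10 increased and 9 decreased regions. Grouped after their directions were seen, the laminin genes Lama2, Lama4 and Lamc1 had 10 increased regions and 1 decreased region, while the collagen genes Col4a1, Col15a1 and Col18a1 had 7 decreased regions and no increased one. Of these, 9 of the 10 increased laminin regions lay on chromosome 10, and the 3 decreased regions of Col15a1 lay on chromosome 4. Outside the 4 chromosomes, Lamc1 with 1 increased and 1 decreased region and Col4a1 with 2 decreased regions were left.

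Lama2 encodes the laminin chain of the mature muscle basement membrane, and its loss causes a congenital muscular dystrophy. It carried 7 increased regions, the highest number of increased regions among the 49 genes, and no decreased region within 100 kb of a start. A region of 501 bp lay 915 bp upstream of its most 5' start (27620423 to 27620923). Farther upstream, regions of 2955 bp (27701471 to 27704425, joined from 2 peaks) and 1573 bp lay 83190 and 92696 bp away, and 1 of 501 bp lay 145285 bp away in an intron of Gm30228. The 3 others lay in introns of this gene of 639723 bp, between 235720 and 479162 bp from the start. Lama4, the laminin chain of vessels and of developing muscle, had 2 increased intronic regions of 640 and 501 bp, 58143 and 90602 bp from its most 5' start. Another increased region within 100 kb of its start was nearest to Rfpl4b.

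The MEF2 letters, named after the muscle transcription factor, were found in 3 of the 29 increased regions of ECM genes (10.3%) and in 0 of the 43 decreased ones, compared with 2.83% and 1.31% of all increased and decreased regions. These 3 regions were an intronic region of Lama2, an intronic region of Lama4 and an upstream region of Vcan, the first pair on chromosome 10. Outside the 4 chromosomes, only the Vcan region was left, which was 6.25% of 16 regions compared with 3.01% of all increased regions there. The matches are shown with 15 bases on each side, after the stretch of the Lama2 region 915 bp upstream, which held a RUNX match.
Lama2, chr10:27620423-27620542 (-): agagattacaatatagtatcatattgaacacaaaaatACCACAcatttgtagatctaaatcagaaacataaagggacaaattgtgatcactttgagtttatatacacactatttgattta
Lama2, chr10:27383809-27383848 (-): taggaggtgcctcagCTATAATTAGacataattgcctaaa
Lama4, chr10:39056119-39056158 (+): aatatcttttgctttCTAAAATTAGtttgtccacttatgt
Vcan, chr13:89888955-89888994 (-): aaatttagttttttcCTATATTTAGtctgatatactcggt
The same intronic region of Lama2 also held AP-1 and SRF letters. SRF letters were in 10.3% of the increased and 6.98% of the decreased regions of ECM genes, compared with 2.71% and 2.38% of all regions, which was 3 regions in each direction.

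Lamc1 (chromosome 1), the gamma chain shared by most laminins, had regions of both directions in its gene body. The increased region of 501 bp lay in an intron 51667 bp from its most 5' start, and the decreased region of 1287 bp (153227789 to 153229075) lay 104354 bp from it. The decreased region was 712 bp from the start of a shorter coding transcript, so it did not lie at the promoter of the full-length gene.

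Of the basement membrane collagens, Col4a1 and Col4a2 encode the chains of the type IV network and are transcribed in opposite directions from starts 21 bp apart on chromosome 8. Col4a1 had 2 decreased regions in its gene body, and both also lay within 100 kb of the Col4a2 start. Their widths were 501 and 812 bp, and they were centred 29237 and 94660 bp from the most 5' start of Col4a1. The second was 897 bp from the start of a transcript with a retained intron. Col4a2 had no assigned region, and an increased region of 501 bp within 100 kb of one of its starts was nearest to Rab20. Col15a1 (chromosome 4), a collagen at the outer face of the basement membrane, had 3 decreased regions in its gene body with widths of 1201, 2907 and 711 bp, between 50257 and 100505 bp from its most 5' start. The first was 117 bp from the start of a non-coding transcript of the gene. Another 3 decreased regions within 100 kb were nearest to Tgfbr1. Col18a1, the source of the antiangiogenic fragment endostatin, had 2 decreased regions of 854 and 1263 bp in its gene body, 30082 and 85063 bp from its most 5' start. The first of them was 634 bp from the start of the pseudogene Gm7775.

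The stretches of 120 bases richest in motif letters are shown for the 3 decreased regions within 1 kb of an internal start. The Lamc1 stretch held a TEAD and a SMAD match. The Col4a1 stretch held a SMAD match and an SRF match, and the Col15a1 stretch held 1 match each of AP-1, E-box, RUNX and SMAD.
Lamc1, chr1:153227798-153227917 (-): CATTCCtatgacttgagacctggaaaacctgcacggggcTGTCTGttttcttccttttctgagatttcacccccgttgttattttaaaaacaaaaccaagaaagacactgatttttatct
Col4a1, chr8:11218174-11218293 (-): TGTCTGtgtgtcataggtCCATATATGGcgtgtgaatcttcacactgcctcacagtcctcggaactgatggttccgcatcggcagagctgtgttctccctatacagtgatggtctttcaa
Col15a1, chr4:47258255-47258374 (+): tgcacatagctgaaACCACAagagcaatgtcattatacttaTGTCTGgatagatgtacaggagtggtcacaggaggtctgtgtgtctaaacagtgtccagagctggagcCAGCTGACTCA
E-box letters were in 20.7% of the increased and 30.2% of the decreased regions of ECM genes, compared with 28.8% and 37.9% of all regions.

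Nidogens bridge the laminin and collagen IV networks. Nid2 had a decreased intronic region of 1231 bp, 35441 bp from its most 5' start, and an increased region within 100 kb that was nearest to Rtraf. Nid1 had no assigned region, and a decreased region 89440 bp from a start of Nid1 was nearest to Gpr137b.

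**Figure D2:**
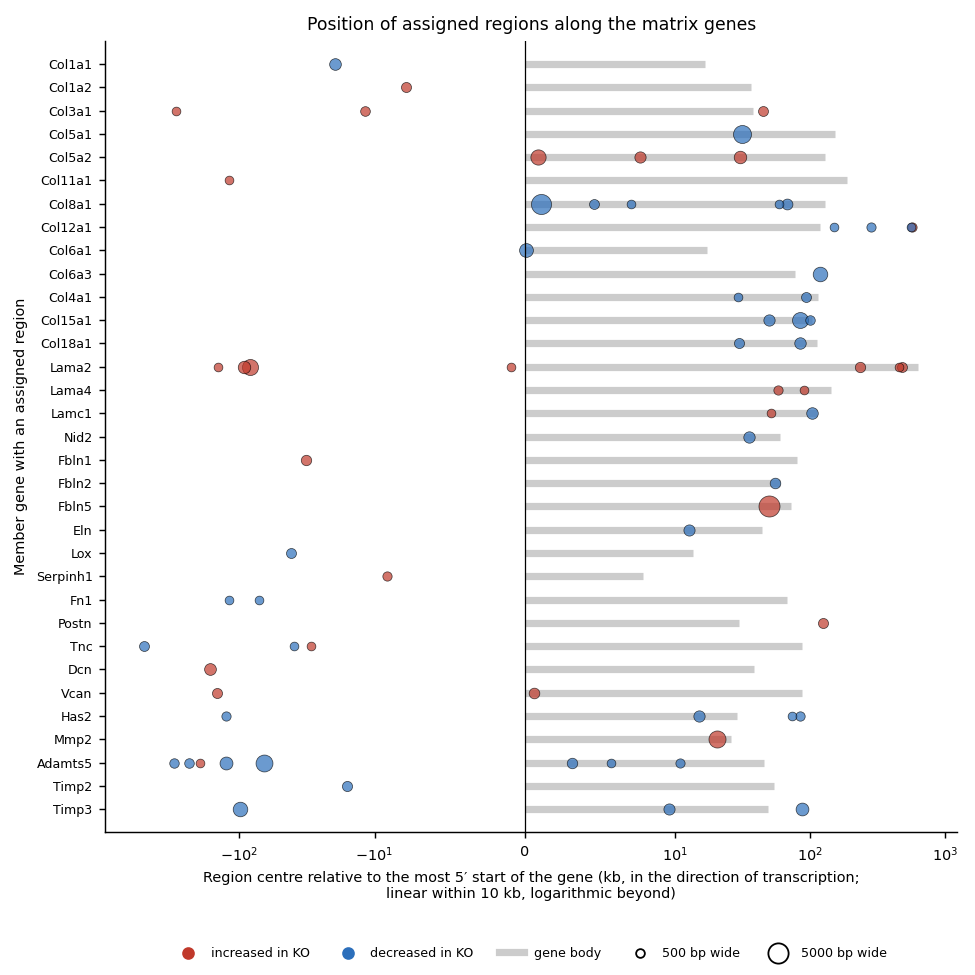
Position of the 72 assigned regions relative to the most 5' start of their gene in kb along the direction of transcription (linear within 10 kb, logarithmic beyond), with 1 row per gene, the gene body in grey, increased regions in red, decreased regions in blue and point area growing with region width. All 5 regions of Col8a1 are decreased and within its body, and those of Lama2 are increased on both sides of its start.

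Elastic fibre genes showed 2 increased and 2 decreased regions over 6 genes. Fbln5, a fibulin that binds elastin and is needed for fibre assembly, had the widest region of the gene set, 5459 bp in an intron on chromosome 12 (101766084 to 101771542), which was increased and lay 50242 bp from its most 5' start. Fbln1 (chromosome 15) had an increased region of 936 bp in intergenic sequence 31913 bp upstream, while 2 decreased regions within 100 kb of its starts, at 37152 and 56868 bp, were nearest to Atxn10. The decreased regions were a 1163 bp region in an intron of Eln, which encodes elastin, 12723 bp from its most 5' start, and a 986 bp region in an intron of Fbln2, 55462 bp from its most 5' start. Another 3 decreased regions within 100 kb of Fbln2 starts were nearest to Hdac11 or Nup210. The microfibril genes Fbn1 and Fbn2 had no region by either rule.

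The widest region, in Fbln5, held 7 RUNX, 6 TEAD and 5 SMAD matches over its whole width. Its stretch of 120 bases richest in motif letters held 2 SMAD matches and 1 SP/KLF match.
Fbln5, chr12:101766757-101766876 (-): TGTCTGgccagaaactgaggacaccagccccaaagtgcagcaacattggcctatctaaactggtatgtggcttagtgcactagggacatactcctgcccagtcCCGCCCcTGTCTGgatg
TEAD letters were in 44.8% of the increased and 44.2% of the decreased regions of ECM genes, compared with 30.7% and 27.3% of all regions. Outside the 4 chromosomes, they were in 8 of 16 increased and 8 of 20 decreased regions, compared with 31.8% and 27.4% of all regions there. RUNX letters were in 41.4% and 37.2%, compared with 34.2% and 36.6%. Outside the 4 chromosomes, RUNX letters were in 5 of 16 increased and 4 of 20 decreased regions, compared with 35.2% and 36.6%. SMAD letters were in 44.8% and 32.6%, compared with 41.6% and 46.8%. SP/KLF letters were in none of the 29 increased and in 9.30% of the decreased regions, compared with 7.45% and 9.16%.

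Of the genes for collagen folding and crosslinking, Serpinh1, the collagen chaperone Hsp47, had an increased region of 638 bp 9183 bp upstream, on chromosome 7 where 97.7% of regions were increased. Lox, the lysyl oxidase that crosslinks collagen and elastin, had a decreased region of 822 bp 41519 bp upstream. Loxl1 and Loxl2 had no region by either rule.

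Adhesive and matricellular glycoproteins connect cells to the matrix or modulate that contact. Fn1, which encodes fibronectin, had 2 decreased regions of 501 bp in intergenic sequence 72251 and 118718 bp upstream. Postn, which encodes periostin, had 1 increased region of 848 bp, 98596 bp downstream of its nearest start and past the 3' end. Tnc, which encodes tenascin-C, had 1 increased and 2 decreased regions on chromosome 4, all upstream. The increased region lay 29683 bp away and the nearest decreased one 39314 bp away, both of 501 bp and in introns of the non-coding gene 8030451A03Rik, and the other decreased region lay 510176 bp away. Sparc, Tnxb and Spp1 had no assigned region. Sparc had 2 decreased regions within 100 kb that were nearest to Fat2, and Tnxb had 1 that was 346 bp from a start of Notch4.

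Among proteoglycan and hyaluronan genes, Vcan and Has2 had regions of opposite direction. Vcan (chromosome 13), the large proteoglycan versican that binds hyaluronan, had 2 increased regions. A region of 1002 bp (89741389 to 89742390) lay 619 bp downstream of its most 5' start, and 1 of 846 bp lay 146503 bp upstream in an intron of Xrcc4. Has2 (chromosome 15), the synthase that makes hyaluronan, had 4 decreased regions of 501 to 1200 bp, the nearest in an intron 15248 bp from its start, a pair downstream at 73592 and 85238 bp, and 1 upstream at 126223 bp. Dcn, the small proteoglycan decorin that binds collagen fibrils, had an increased region of 1348 bp 166514 bp upstream on chromosome 10. Lum, Bgn and Fmod had none assigned, and Fmod had a decreased region within 100 kb that was nearest to Btg2. From the region at the Vcan start, the stretch richest in motif letters opened with overlapping TEAD matches.
Vcan, chr13:89741616-89741735 (-): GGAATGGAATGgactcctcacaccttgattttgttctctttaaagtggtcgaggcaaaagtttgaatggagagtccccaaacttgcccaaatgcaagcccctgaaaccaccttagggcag

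Matrix proteases and their inhibitors had 2 increased and 11 decreased regions. Outside the 4 chromosomes with very uneven directions, Mmp2 with 1 increased region and Timp2 with 1 decreased region were left. All other regions of this group were those of Adamts5 and Timp3. Adamts5 (chromosome 16), the aggrecanase that also cleaves versican, had 7 decreased regions and 1 increased region. Decreased regions of 960, 501 and 627 bp lay in its introns 3140, 5778 and 10913 bp from the start. Another 4 lay upstream, the closest of them 3334 bp wide (85966212 to 85969545) at 66051 bp and the farthest at 306814 bp. The increased region of 501 bp lay among them, 195316 bp upstream, on a chromosome with 7.80% increased regions. A further decreased region within 100 kb was nearest to the neighbouring protease gene Adamts1.

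Mmp2 (chromosome 8), the gelatinase A gene, had an increased region of 3404 bp in its gene body (92846181 to 92849584), 20592 bp from its most 5' start. The inhibitors had decreased regions only. Timp2 had 1 of 871 bp 16106 bp upstream, and Timp3 had 3 of 2341, 1162 and 1679 bp, all within introns of Syn3, the gene in which Timp3 is nested. The central of these lay in Timp3 itself, 9653 bp from its most 5' start. Timp3 lies on chromosome 10, where increased regions were the majority. Another 2 decreased regions within 100 kb of Timp2 starts were nearest to Cep295nl and C1qtnf1. Mmp14, a membrane-bound protease that activates Mmp2, had no region by either rule.

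The regions of the ECM genes were also compared with all regions in features that the list did not use. Mean GC content was 42.0% ± 4.35 (SD, 29 regions) in increased and 46.2% ± 4.65 (SD, 43 regions) in decreased regions, compared with 43.5% ± 5.56 and 48.0% ± 5.28 over all 3917 increased and 7262 decreased regions. The lowest GC content among the increased regions was 35.3%, at the region 915 bp upstream of Lama2, and the highest was 51.5%, at the Vcan start. The median width was 812 bp for increased and 854 bp for decreased regions, compared with 777 and 864 bp over all regions. The shortest width of 501 bp was seen in 9 increased and 10 decreased regions.

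Most regions were distal. The median distance to the nearest start was 31913 bp for increased and 22520 bp for decreased regions, compared with 25061 and 17115 bp over all regions. A start of the member itself lay within 1 kb of 3 increased regions (Col5a2, Lama2 and Vcan) and 4 decreased ones (Col6a1, Lamc1, Col4a1 and Col15a1), of which those of Lamc1, Col4a1 and Col15a1 were at internal starts. Over 100 kb from the nearest start were 31.0% of the increased and 18.6% of the decreased regions, compared with 23.4% and 14.4% over all regions. Increased regions were upstream of the nearest start in 62.1% and decreased regions in 41.9%, compared with 46.7% and 45.2% over all regions. Outside the 4 chromosomes, these shares of the ECM genes were 43.8% and 45.0%, so the difference between directions was not kept there. Introns held 44.8% of the increased and 46.5% of the decreased regions, compared with 46.2% and 51.7% over all regions, and intergenic sequence held 44.8% and 37.2%, compared with 35.9% and 33.0%.

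**Figure D3:**
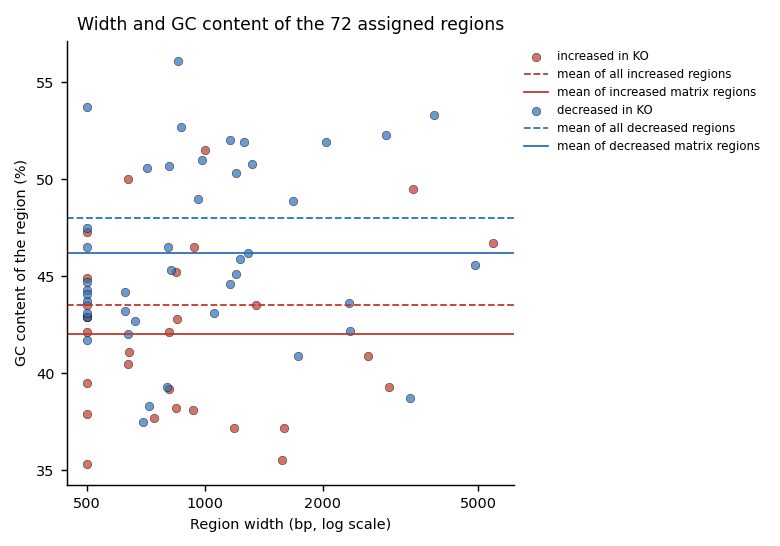
Width in bp (log scale) and GC content in percent of the 29 increased (red) and 43 decreased (blue) regions assigned to ECM genes, with solid lines at the mean GC content of each and dashed lines at the means over all regions of that direction. The increased regions average 42.0% and the decreased regions 46.2%, and the points of the directions overlap.

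ECM genes with several regions mostly had a single direction, as did such genes among all protein-coding genes. Of 16 ECM genes with 2 or more assigned regions, 12 had regions of 1 direction (75.0%), compared with 71.3% of 2341 such genes overall. The 10 genes with 3 or more were Lama2, Adamts5, Col8a1, Has2, Col12a1, Col3a1, Col5a2, Col15a1, Timp3 and Tnc.

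By distance alone, the share of increased regions was not above that of all regions. Of the 88 regions within 100 kb of a start, 26 were increased (29.5%, Wilson interval 21.0 to 39.8). The share was 35.0% among all differential regions and 40.3% among assigned regions (interval 29.7 to 51.8). These intervals treat regions as independent, although several share a gene or a chromosome, so the difference from 35.0% was not tested. Outside the 4 chromosomes with very uneven directions, 29.6% of 54 regions within 100 kb were increased, compared with 30.2% of all regions there. An increased region within 100 kb was found for 15 of the 49 genes (30.6%), compared with 24.1% of all protein-coding genes, and a decreased one for 26 (53.1%), compared with 42.7%. Of the 88 regions, 55 were also assigned to a member and 33 were nearest to another gene, while 17 assigned regions lay farther than 100 kb. Just inside the limit were an increased region of Postn at 98596 bp and a decreased region of Timp3 at 98539 bp, and just outside were decreased regions of Fbln1 at 101229 bp and Col6a2 at 102456 bp. Of the 16 genes without an assigned region, 5 had a region within 100 kb and 11 had none by either rule.

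Other genes of the pathway were counted in the same way, beside 10.6% of all protein-coding genes with an increased and 17.8% with a decreased region. Of 21 matrix receptor genes, 2 had an increased (9.52%) and 10 a decreased region (47.6%), with 5 increased and 25 decreased regions in all. Itga11, a receptor for fibrillar collagen, had 7 decreased regions, Itgb5 had 6 (chromosome 16), and Itga9, which binds tenascin-C, had 4 increased and 3 decreased regions. Itga1, another collagen receptor, had 1 increased region. Of 16 collagen processing enzyme genes, none had an increased and 4 a decreased region, namely Plod2, P4ha1, Adamts14 and Loxl4. Marker genes of other cells were listed beside them, since fibroblasts make many of these matrix proteins. Of 18 fibroblast marker genes outside the set, 5 had an increased (27.8%) and 7 a decreased region (38.9%), shares that also lay above those of all protein-coding genes. Increased regions were found for 2 of 12 endothelial and 0 of 10 macrophage marker genes, and decreased regions for 3 and 1. Of 25 myotube marker genes, 6 had an increased and 4 a decreased region, with 5 increased regions at Mef2c and 4 decreased regions at Actn2. Expression of these markers is not in the lists, so the myotube label could not be checked by expression, and the part of other cell types in the results was not tested.

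**Figure D4:**
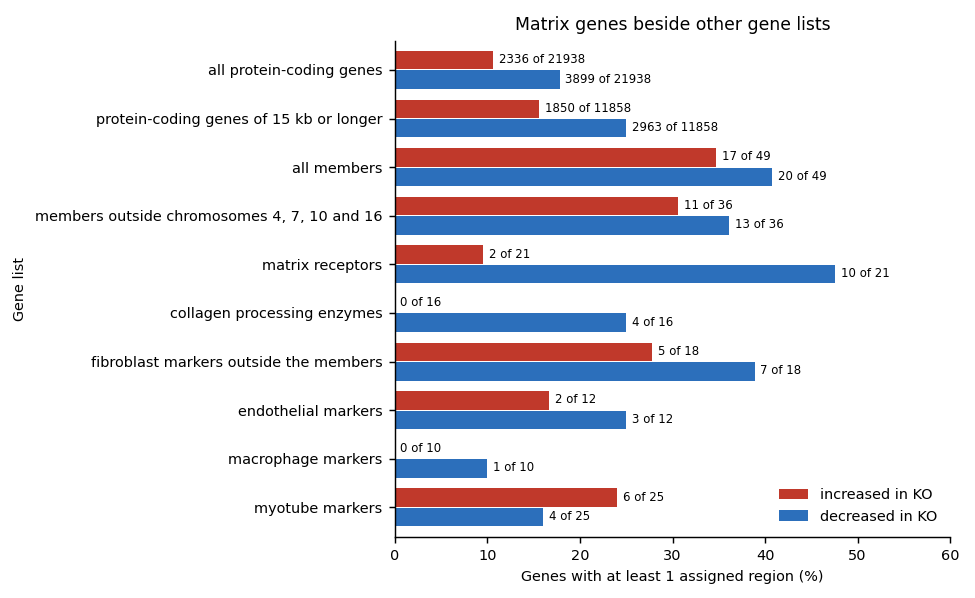
Share of genes with at least 1 assigned increased (red) or decreased (blue) region, in percent, for the 49 ECM genes, all protein-coding genes and the other lists, with the number of genes written beside each bar. The ECM genes reach 34.7% and 40.8%, above the 10.6% and 17.8% of all protein-coding genes and above those of 15 kb or longer, while fibroblast markers outside the set reach 27.8% and 38.9% and matrix receptors 9.52% and 47.6%.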

How the data were processed

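CUT&RUN libraries of H3K27ac and control IgG were made from Nrip1KO and Ctrl myotubes. Per the submitters' processing notes and the study's methods, the authors aligned paired reads to mm10 with BWA-MEM2 (2.2.1), called broad peaks and differential regions (2-fold or more) with HOMER (4.11), and deposited 1 interval list per direction. How replicates and IgG libraries entered the calls is not given in the sources used here. The labels and the methods name different suppliers of the H3K27ac antibody. The deposited score is the same for every region and was not used. Depth per library is unknown.

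Positions are counted from 1, and 1 region outside chromosomes 1 to 19, X and Y was left out. Nearest starts, gene bodies and exons came from GENCODE M21, in which all transcripts of a protein-coding gene gave starts. Sequence came from GRCm38.p6 and promoters from RefSeq. A promoter-proximal region was centred within 1 kb of a start of any gene. Motifs were searched in the central 500 bases, and exact letters miss sites that depart from the consensus. Python 3.11.15, pysam 0.24.0 and matplotlib 3.10.9 were used, and the assignment was tested on simulated positions.

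The members, role groups, marker lists and motifs were chosen with earlier results of these data known. Every member is named under its role. Region values are given for members with a region within 1 kb of a start, with both directions or with 3 or more regions, and for the 3 widest regions per direction. Values for the remaining members, and the single motif matches, were added after they were seen. No test was run. Alternatives covered starts of genes of every type, limits on distance and width, gene bodies, joined regions, region edges, other windows and chromosomes left out. Counts with the most 5' start of each gene alone were added after seeing the data.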

Additional observations from a re-analysis of the deposited data

How the results depend on the processing

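Of 67 alternative values, 41 stayed within 1.5 times the reported count or, for a percentage, within the 95% Wilson interval of the reported value, and 26 did not. The share of increased regions stayed between 32.4% and 44.4% among assigned regions (reported value 40.3%, interval 29.7 to 51.8) and between 29.2% and 32.7% within the window (reported value 29.5%), with windows of 50 and 250 kb included. The counts depended on which starts were eligible. With starts of genes of every type, 13 increased and 23 decreased regions at 9 and 13 members were left, with 0 members of both directions. All of these 36 regions were among the 72. Without regions over 10 kb from the start, there were 8 increased and 16 decreased regions at 7 and 10 members and 0 of both directions. Without regions under 1 kb wide, there were 9 and 18 regions at 6 and 13 members and 0 of both. Without chromosomes 4, 7, 10 and 16, there were 16 and 20 regions at 11 and 13 members and 2 of both. By gene bodies, there were 12 and 25 regions at 7 and 14 members and 1 of both. With regions over 100 kb away left out, or with the most 5' start alone (chosen after seeing the data), 2 members had both directions. These settings keep fewer regions or assign them to other genes. Libraries could not be left out in turn, since no value per library was used here. No paired analysis was possible because the result comes from no test.

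Unknown depth and replicate spread limit every statement, and a region that missed the fold threshold is not listed, so a gene without regions is not shown to be unchanged. Intervals cover counting error over regions alone. The nearest start is not shown to be the gene that a region acts on.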
